A study of Mus musculus with 2 samples.

Results

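The Hox genes read here were the 39 protein-coding genes of the mouse whose symbol is Hoxa, Hoxb, Hoxc or Hoxd followed by a number, out of 21938 protein-coding genes of the GENCODE M21 annotation on chromosomes 1 to 19, X and Y. They were chosen by name alone and lie in 4 clusters on mm10. The Hoxa cluster holds 11 genes in 105 kb (chr6:52155590-52260880), the Hoxb cluster 10 genes in 174 kb (chr11:96194316-96368256), the Hoxc cluster 9 genes in 116 kb (chr15:102921103-103036852) and the Hoxd cluster 9 genes in 96.8 kb (chr2:74668310-74765142). The genes of the Hoxa cluster are on the minus strand of the reference and those of the other clusters on the plus strand.

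Hox proteins are homeodomain transcription factors that give cells of the embryo their place along the head-to-tail axis. Within a cluster the genes stand in the order in which they are used: low-numbered genes are active furthest forward, in the hindbrain, and high-numbered genes towards the tail. The forebrain, from which the cerebral cortex grows, forms ahead of the territory of these genes, and there the clusters are classically held silent under Polycomb proteins. CTCF, a DNA-binding protein of insulators and chromatin loops, has well known sites between Hox genes.

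Open chromatin was measured by DNase-seq, in which DNase I cuts the DNA that nucleosomes and other proteins leave exposed. The tissue was the left cerebral cortex of male mice aged 2 months of the hybrid strain B6CASTF1/J, whose parents are C57BL/6J and CAST/EiJ. A single group of 2 samples, labelled biological replicates 1 and 2, had no treatment, second genotype or other tissue beside it. That they are separate animals rests on sample labels that number the males differently, since both carry the same donor record. With 2 samples and no contrast no test was possible, so each count of Hox genes is given beside the same count over all coding genes.

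For each replicate there was a shorter and a longer list of peaks, a list of footprints, which are short protected stretches inside open chromatin, and a track of stretches with a false discovery rate (FDR) under 0.05. Peak heights are the authors' own values, with a scaling not given in the sources used here, and the read depth behind them is unknown. The shorter lists held 63928 and 76440 peaks, with median heights of 0.915 in replicate 1 and 0.689 in replicate 2. In 74.3% of the 44745 regions shared by both replicates the height was larger in replicate 1, so heights are set side by side by replicate and not averaged. Overlap of a peak of each replicate by at least 1 bp made a shared region. The tissue is a mix of cells, and few open cells cannot be told apart from weak opening in many.

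The sequences that carry the pattern described below are those of the open regions between the genes, since most Hox promoters were closed. Below, 4 regions are shown whole, from the plus strand of GRCm38.p6, with the bases that lay in a footprint of both replicates in capitals. The first 3 lie between the gene of group 9 and the gene of group 8 of their cluster, and the last lies just before a start of Hoxc5. The reference carries the C57BL/6J allele, and the CAST/EiJ allele was not read.
Hoxb9 to Hoxb8, chr11:96278861-96279060: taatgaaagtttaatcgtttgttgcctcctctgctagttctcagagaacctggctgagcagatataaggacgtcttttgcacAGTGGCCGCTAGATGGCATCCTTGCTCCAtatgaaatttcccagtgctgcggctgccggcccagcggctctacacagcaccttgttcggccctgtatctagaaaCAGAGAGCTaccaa
Hoxc9 to Hoxc8, chr15:102987501-102987700: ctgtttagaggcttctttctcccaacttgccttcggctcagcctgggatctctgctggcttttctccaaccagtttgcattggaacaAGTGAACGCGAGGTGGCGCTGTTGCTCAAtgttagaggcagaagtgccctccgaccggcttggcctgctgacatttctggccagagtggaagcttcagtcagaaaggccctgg
Hoxd9 to Hoxd8, chr2:74702281-74702500: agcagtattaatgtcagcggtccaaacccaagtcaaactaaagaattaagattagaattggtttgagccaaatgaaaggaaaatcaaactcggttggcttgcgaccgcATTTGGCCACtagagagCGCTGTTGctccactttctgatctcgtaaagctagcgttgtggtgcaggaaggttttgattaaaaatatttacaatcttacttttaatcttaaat
Hoxc6 to Hoxc5, chr15:103013651-103013796: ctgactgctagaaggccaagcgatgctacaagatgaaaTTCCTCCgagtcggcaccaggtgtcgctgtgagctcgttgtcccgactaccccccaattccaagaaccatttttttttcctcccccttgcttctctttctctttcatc

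Nearly all Hox promoters lacked a peak. A promoter was taken as 500 bp upstream and downstream of each annotated transcription start site (TSS), and it was called open where each replicate had a peak of its shorter list there. A promoter called closed is one without such a peak, which at an unknown depth means that no opening was detected. Of the 39 Hox genes, 2 were open in both replicates, Hoxa7 and Hoxc5, while 56.2% of all coding genes were. Read singly, replicate 1 had a promoter peak at 4 Hox genes (61.6% of coding genes), which adds Hoxd1 and Hoxd11, and replicate 2 had one at the same 2 genes, Hoxa7 and Hoxc5 (57.1%). With the longer lists 4 Hox genes had a peak in both replicates, where the share of all coding genes was 61.0%. An FDR stretch in both replicates was found at 4 Hox genes, against 61.9% of coding genes, and a footprint in both at 2, against 58.5%. At 33 of the 39 genes none of the 4 lists held a promoter peak, against only 33.2% of all coding genes.

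Hoxa7 had the tallest promoter peak of the family. Its height was 2.21 in replicate 1 and 0.831 in replicate 2, its lowest FDR was 6.91e-20 and 1.84e-17, and 524 and 507 bp of its promoter windows lay under an FDR of 0.05. Each replicate placed 4 footprints in it. The peak lies at the start of 1 transcript (TSS at position 52221854), which is upstream of the other starts and 4349 bp from the nearest start of a transcript with a consensus coding sequence (CCDS). At the CCDS start of Hoxa7 neither replicate had a peak or a base under the FDR limit. Hoxa7 is among the genes of the middle of the cluster, which act in the trunk.

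Hoxc5 had a lower peak, 0.669 in replicate 1 and 0.311 in replicate 2. Its FDR reached 2.91e-05 and 0.000367 over 224 and 196 bp, and it held 3 and 2 footprints, of which 7 bp coincided (the capitals in the last sequence above). In the shorter lists the shared region ended 19 bp before the start of the Hoxc5 CCDS transcript at position 103013815. In the longer lists the peaks of both replicates covered that start. The region of the shorter lists also lies in an intron of a longer Hoxc5 transcript that starts far upstream, within the Hoxc10 gene.

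Weaker promoter peaks were found at Hoxd1, Hoxa10 and Hoxd11. Hoxd1, a gene of the front end of its cluster, had a height of 0.639 in replicate 1, and in replicate 2 only the longer list had a peak, of 0.270. Its FDR was 1.76e-06 over 328 bp in replicate 1 and 0.0206 over 99 bp in replicate 2, and the 4 footprints were in replicate 1 alone. The same bases are the start of Haglr, a non-coding RNA transcribed the other way, so the peak cannot be assigned to either of them. Hoxa10, a gene of the trunk and limb, was in the longer lists only, at 0.544 and 0.270, with FDR values of 0.0154 and 0.00293 over 93 and 112 bp.

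Hoxd11, which patterns the forearm and kidney, was open in replicate 1 alone. There its tallest peak reached 0.281, its FDR was 1.58e-06, and 765 bp were under the limit, more than at any other Hox gene, while replicate 2 had 0 bp. Low peaks of replicate 1 were strung along the 5' part of this gene without a partner in replicate 2. Hoxa4 had no peak, but 35 bp of replicate 1 were under the limit, with an FDR of 0.0367.

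Since the Hoxa7 peak sits at an upstream start, the count was also made with starts of CCDS transcripts alone, a choice made after the values were seen. Of the 38 Hox genes that have such a transcript, 1 was open in both replicates, Hoxc5, where 56.1% of coding genes with a CCDS transcript were open. RefSeq promoter windows on GRCm38.p6, from 250 bp before to 50 bp after a start, matched 22 Hox genes. In the shorter lists 0 of these 22 had a peak in both replicates, and in the longer lists 1 had. Over the 16522 coding genes matched to such windows by symbol the shares were 52.4% and 56.6%.

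By cluster, the Hoxb genes were the most uniformly closed. Of the 10 Hoxb promoters 0 had a peak in any list, a base under the FDR limit or a footprint, in either replicate. The Hoxa cluster had 1 open promoter of 11, the Hoxc cluster 1 of 9 and the Hoxd cluster 0 of 9. By position along the axis, 0 of 12 genes of groups 1 to 4, 2 of 11 of groups 5 to 8 and 0 of 16 of groups 9 to 13 were open. The numbers in each class are too small to rank them. Some promoters share windows: Hoxd3 and Hoxd4 have starts 2 bp apart and were both closed.

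**Figure D1:**
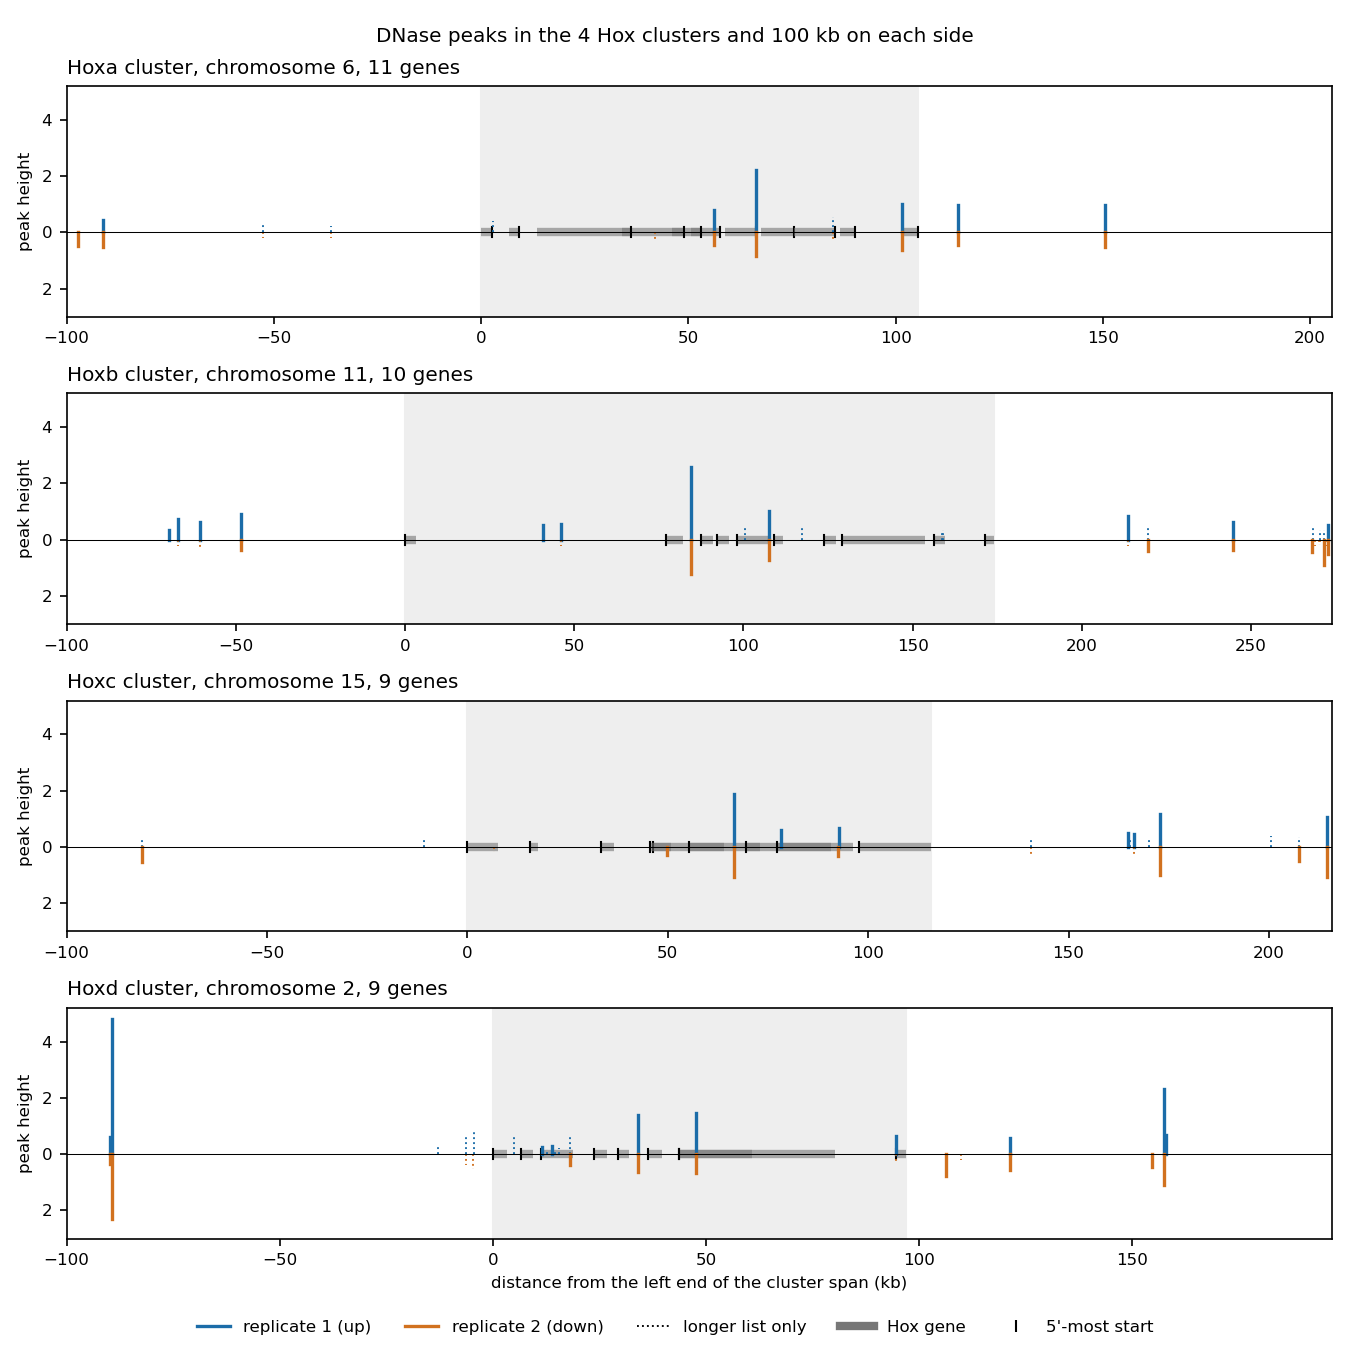
Peaks of the 4 Hox clusters and 100 kb on each side, by distance in kb from the left end of the cluster (grey area). Bars give the height of the peaks of replicate 1 upwards and of replicate 2 downwards, dotted bars are peaks of the longer lists only, grey boxes are Hox genes and ticks their 5'-most starts. The tallest bar inside a cluster, of 2.59 in Hoxb, stands away from the ticks, that of 2.21 in Hoxa stands on the tick of Hoxa7, and the tallest outside, of 4.81, is at Lnpk beyond Hoxd.

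Open bases, read from the FDR track, need no peak list. The median Hox gene had 0 bp of its promoter under an FDR of 0.05 in either replicate, where the median coding gene had 629 bp in replicate 1 and 422 bp in replicate 2. Per kb of promoter window, Hox genes had 29.6 open bases in replicate 1 and 13.3 in replicate 2. Over all coding promoters these densities were 226 and 182. From the TSSs of a Hox gene to the nearest shared region the median distance was 10400 bp, and for all coding genes it was 5.00 bp.

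Closed promoters of the genome are mostly poor in CpG, and those of the Hox genes were not. CpG islands, stretches where CpG pairs are not depleted, mark most promoters of widely used genes and also those of developmental genes. CpG and GC content were read within 500 bp of the 5'-most start of each gene alone. Opening was read at all annotated starts, so in genes with several starts the places can differ. The ratio of observed to expected CpG had a median of 0.678 over the Hox genes, with a range of 0.181 to 0.996. Over all coding genes the median was 0.552. Their GC content was 57.4% at the median, against 54.7%. When all coding genes were put into 20 bins by this ratio, 31 of the 39 Hox genes were in the upper 10 bins. Of these 31 genes 2 were open in both replicates, where 87.4% of the coding genes in those bins were. Hoxa5, at 0.996, was in the highest bin, in which 94.4% of coding genes were open, and it had 0 open bases in both replicates. Hoxa4, Hoxa13, Hoxc12 and Hoxd13 were in bin 19 and had no promoter peak either. Hoxb2, at 0.181, was the poorest in CpG at its 5'-most start.

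**Figure D2:**
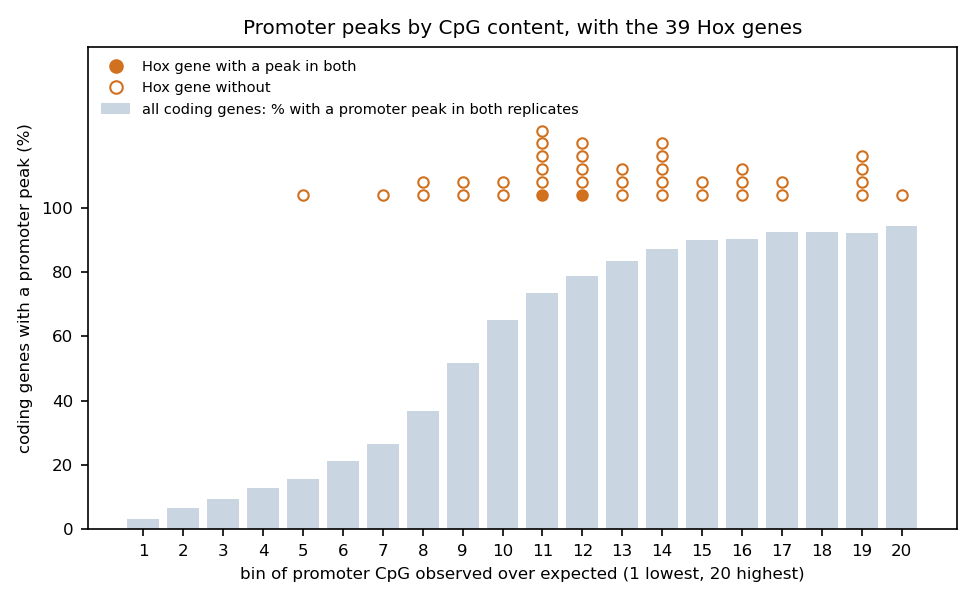
Bars give the percent of coding genes with a promoter peak in both replicates, in each of 20 bins of CpG observed over expected. The ratio is that of the 5'-most start of each gene, and the bins run from the lowest to the highest. Circles above the bars are the 39 Hox genes in their bins, filled for the 2 that were open, in bins 11 and 12. The bars climb from 3.28% to 94.4%, while the open circles stand mostly in the upper bins.

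The clusters differed in CpG content. Hoxb promoters, which had no promoter signal at all, had a median ratio of 0.472 at their 5'-most starts. For Hoxc promoters it was 0.651, for Hoxa promoters 0.689 and for Hoxd promoters 0.721. Hoxb9, at 0.803, and Hoxb7, at 0.834, were in bin 17, in which 92.4% of coding genes were open, and both were closed. Whether CpG content has a part in the differences between clusters was not tested. Among closed genes, the nearest to a shared region were Hoxb5, with 1176 bp, and Hoxa3, with 1322 bp, and the farthest were Hoxc13, with 66398 bp, and Hoxb1, with 63592 bp. Hoxb1 and Hoxc13 stand at opposite ends of the gene order, the first used in the hindbrain and the second in skin and tail.

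Between the genes the clusters were not empty. Inside the 4 spans there were 9 shared regions, 3 in Hoxa and 2 in each of the others, which is 18.3 per Mb where the genome had 16.4. Replicate 1 had 15 peaks there, of which 9 met a peak of the same list of replicate 2, and replicate 2 had 11, of which 9 did. The longer lists gave 13 shared regions. The 4 that they added lie at the promoters of Hoxa10 and Hoxd1, between Hoxb13 and Hoxb9 (0.544 and 0.223), and in an exon near the end of Hoxd11 (0.678 and 0.378).

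Measured in open bases, the spans had 12.2 per kb in replicate 1 and 7.93 in replicate 2, the 100 kb flanks had 11.4 and 11.9, and the genome 12.6 and 14.0. By cluster, Hoxa had 1205 and 1312 open bases, Hoxb 1595 and 842, Hoxc 760 and 780, and Hoxd 2436 and 968. Hoxa and Hoxc were thus nearly alike in both replicates, and the gap of the spans came from Hoxb and Hoxd. Outside the promoter windows, Hox exons had 7.91 and 5.39, Hox introns 9.42 and 6.94, and the stretches between Hox genes 9.75 and 7.70. Spans were above flanks in replicate 1 and below them in replicate 2. Repeats, counted as soft-masked bases, made up 18.2% of the spans, 29.6% of the flanks and 36.4% of the genome. Hox clusters are known to keep out mobile elements.

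**Figure D3:**
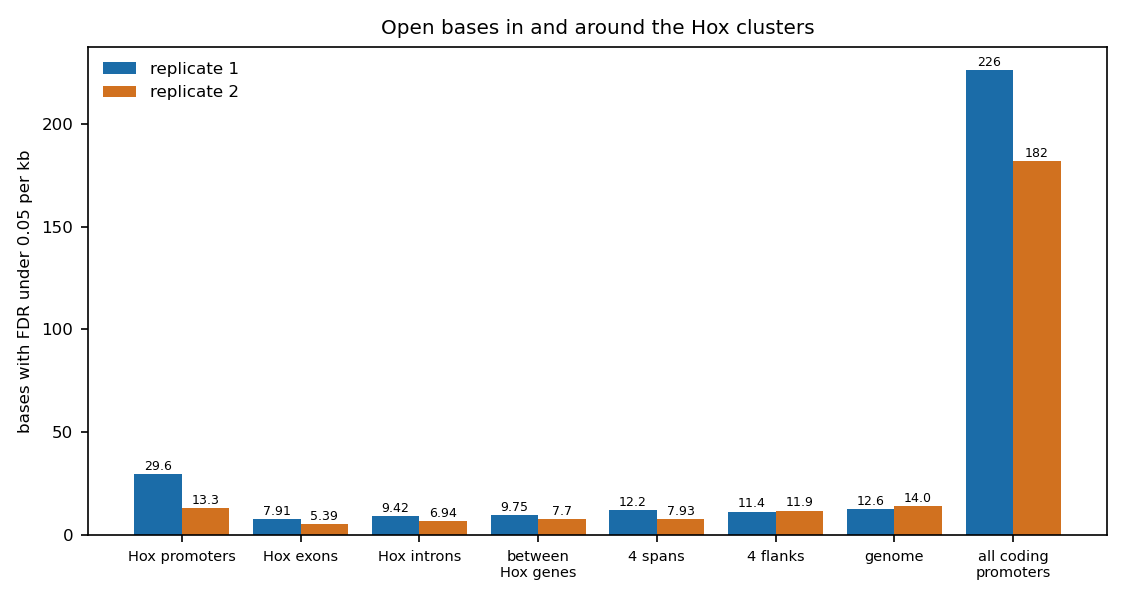
Bars starting at 0 give the bases with an FDR under 0.05 per kb, by replicate, for Hox promoters, the rest of the Hox exons and introns, the stretches between Hox genes, whole spans, flanks, the genome and all coding promoters. Hox promoters (29.6 and 13.3) stand far below all coding promoters (226 and 182) and the other bars lie between 5.39 and 14.0.

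Of the 9 regions inside the clusters the tallest was in Hoxb, between Hoxb9 and Hoxb8. It had a height of 2.59 in replicate 1 and 1.22 in replicate 2, an FDR of 1.29e-25 and 6.59e-20, and lies 4002 bp before the start codon of Hoxb8, in no annotated exon or intron. The Hoxa7 upstream start described above, between the coding parts of Hoxa7 and Hoxa9, was next in replicate 1 at 2.21. Between Hoxc9 and Hoxc8, 3179 bp before the start codon of Hoxc8, the heights were 1.88 and 1.07 and the FDR 7.17e-19 and 7.27e-27. That region lies in an intron of the long Hoxc5 transcript. Between Hoxd9 and Hoxd8, 3157 bp before the start codon of Hoxd8, the heights were 1.39 and 0.641 and the FDR 5.82e-09 and 6.32e-10. Each of the 4 clusters therefore had a shared region on the near side of its group 9 gene, between that gene and the next one towards the front end, a pattern noticed after the values were seen.

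The other 5 regions were spread over the clusters. At 1.46 and 0.655 one lay on the start of Hoxd3os1, an antisense RNA, in introns of Hoxd3 and Hoxd4, and so between the coding parts of Hoxd8 and Hoxd4. The region between Hoxa11 and Hoxa13, at 1.01 and 0.621, lay 309 bp from the start of the transcript 9530018H14Rik and in its exon. Between Hoxb6 and Hoxb5 the heights were 1.01 and 0.743, 1593 bp before the start codon of Hoxb5, in an intron of the antisense RNA Hoxb5os. Between Hoxa6 and Hoxa7 they were 0.781 and 0.446, 3117 bp before the start codon of Hoxa6 and within introns of Hoxa3 and Hoxaas3. The last was the Hoxc5 promoter.

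In height, the median of the 9 regions was 1.39 for replicate 1 and 0.655 for replicate 2, beside 1.20 and 0.945 over all 44745 shared regions. All 9 were higher in replicate 1, with a median log2 ratio, replicate 2 over replicate 1, of -1.09. Over all shared regions this ratio was -0.457, over those centred within 500 bp of a coding TSS -0.765, and over those with an exact CTCF match -0.723. The lowest FDR, read from the track of each replicate, was lower in replicate 2 at 6 of the 9. This count was not made over all shared regions, so it cannot be called particular to the clusters. The regions were 200 bp wide at the median, where all shared regions were 240 bp.

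**Figure D4:**
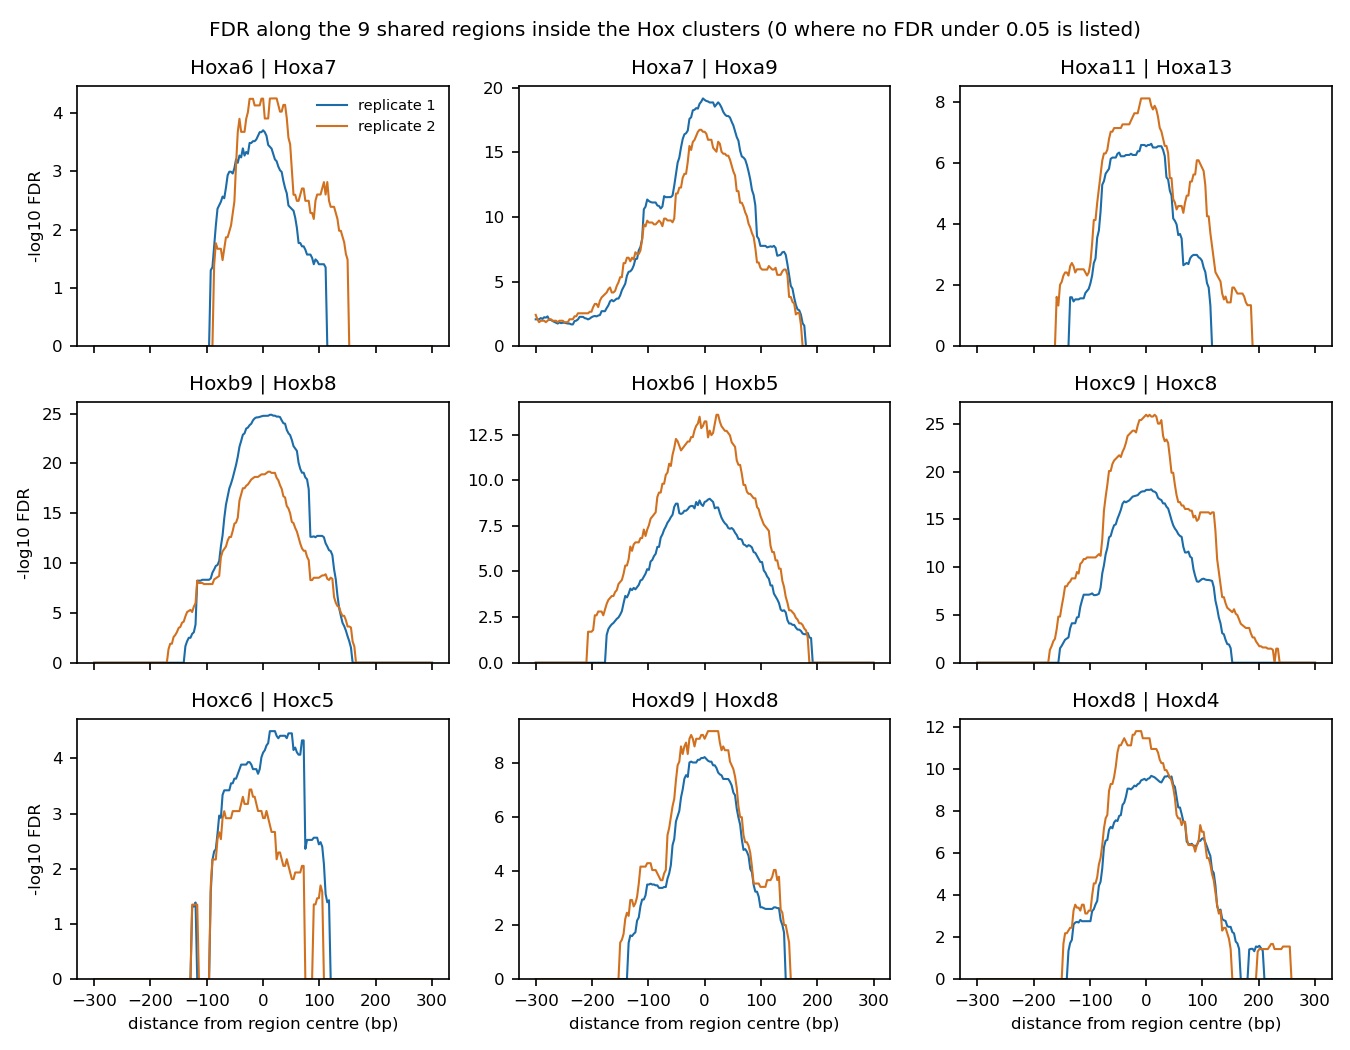
Lines give the -log10 of the FDR by distance in bp from the centre of each of the 9 shared regions inside the clusters, for replicates 1 and 2. A value of 0 means that no FDR under 0.05 is listed. In every panel the lines of both replicates stand over the same bases. Replicate 2 is the higher at the top in 6 of the 9, a count not made over all shared regions.

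Footprints were read at these regions to see which bases were protected in both replicates. In 4 of the 9, a footprint of at least 20 bp in replicate 1 overlapped such a footprint of replicate 2, and this held for 32.3% of all shared regions and 0 of the 12 in the flanks. In the region between Hoxb9 and Hoxb8, 40 and 41 bp lay in footprints, 38 of them in both. Between Hoxc9 and Hoxc8 it was 41 and 36 bp with 29 in both, at the Hoxa7 upstream start 66 and 52 bp with 45 in both, and between Hoxa11 and Hoxa13 66 and 36 bp with 27 in both. Between Hoxa6 and Hoxa7 the footprints of the replicates had 0 bp in common.

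A search for the consensus core of the CTCF motif, which has 12 letters and several of them ambiguous, was then run on both strands over the central 200 bp of each region. An exact match was found in 1 of the 9, between Hoxb9 and Hoxb8, in 1 of the 12 in the flanks, and in 10.7% of all shared regions. With up to 1 mismatch it was 3 of 9 and 29.4%, and regions in the flanks of Hoxa and Hoxb also had such a match. Matches with up to 2 mismatches were also read where at least 6 of the 12 bases lay under a footprint in both replicates, a rule set after the data were seen. By it 5 of the 9 regions had a match, as had 32.1% of all shared regions and 2 of the 12 in the flanks. In all 5 the whole 12 bases lay under a footprint in each replicate. A match describes letters and is not a measurement of CTCF.

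The matched stretches are shown over 30 bp of the GRCm38.p6 reference, with the 12 bases of the match in capitals. All were chosen by their fit to the same consensus, so their likeness in the matched letters was set by the search. The first is read from the minus strand and the others from the plus strand. In the stretch between Hoxd9 and Hoxd8, 12 bases of the match were under a footprint in replicate 1 and 4 in replicate 2, so it is not among the 5.
Hoxa7 to Hoxa9, chr6:52221800-52221829, 1 mismatch: aagaaaattCCAGGAGATGGCagtgtggct
Hoxa11 to Hoxa13, chr6:52257112-52257141, 2 mismatches: agcttgtcaACACGAGGTGGCgcccttgat
Hoxb9 to Hoxb8, chr11:96278939-96278968, 0 mismatches: gcacagtggCCGCTAGATGGCatccttgct
Hoxc9 to Hoxc8, chr15:102987584-102987613, 2 mismatches: aacaagtgaACGCGAGGTGGCgctgttgct
Hoxd9 to Hoxd8, chr2:74702386-74702415, 1 mismatch: cgcatttggCCACTAGAGAGCgctgttgct
Hoxd8 to Hoxd4, chr2:74715912-74715941, 2 mismatches: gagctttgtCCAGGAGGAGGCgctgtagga
These stretches had 13 to 22 of 30 bases alike in pairs, which includes the letters by which they were found. The longest common run was 11 bp. The Hoxa11 to Hoxa13 and Hoxc9 to Hoxc8 stretches shared a run of this length. The Hoxc9 to Hoxc8 and Hoxd9 to Hoxd8 stretches shared another, with other letters. Each of these runs continues past the matched bases.

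Of the other motifs searched, the HOX/PBX motif TGATNNAT was found in 0 of 9 (4.58% of all shared regions), the homeodomain motif TAATTA in 0 of 9 (2.84%), the AP-1 motif TGANTCA in 0 of 9 (10.5%) and the E-box CAGNTG in 2 of 9 (45.9%). In the 12 flanking regions these counts were 0, 0, 1 and 6. All were read on both strands of the same 200 bp windows.

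Most non-coding genes inside the spans had no peak at their starts. The share over all non-coding genes of the genome was not computed, so this cannot be called particular to the clusters. The starts of Hoxd3os1 (1.46 and 0.655) and 9530018H14Rik (1.01 and 0.621) were open in both replicates. Haglr had 0.639 in replicate 1 and, in the longer list, 0.270 in replicate 2. Gm28309, beside Hoxd11, had a peak of 0.203 in the longer list of replicate 1 alone. No list held a peak at the microRNA genes of the clusters, Mir10a, Mir10b, Mir196a-1, Mir196a-2, Mir196b and Mir615, nor at the non-coding RNA gene Hotair.

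The flanks of 100 kb held 12 shared regions, or 15.0 per Mb, and 27 with the longer lists. Of the coding neighbours of Hoxd, 2 were open. Lnpk, which encodes an endoplasmic reticulum protein, had heights of 4.81 and 2.30, and Mtx2, which encodes a mitochondrial outer membrane protein, had 2.31 and 1.09. These genes enclose the Hoxd cluster, and both peaks were taller than any inside it. Evx2, a homeobox gene next to Hoxd13, and Gm28230 had no promoter peak in any list. Between Evx2 and Hoxd13 the longer lists had 2 shared regions, at 0.604 and 0.392, and at 0.786 and 0.533.

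At Hoxa, Evx1, the homeobox gene at its far end, Gm28308 and 5730596B20Rik had no promoter peak in any list. At Hoxb, Ttll6, a tubulin-modifying enzyme, had a promoter peak of 0.643 in replicate 1 and one of 0.257 in the longer list of replicate 2. Skap1, a T cell adaptor, had 0.341 and 0.196 in the longer lists, and Calcoco2 had none. Around Hoxc there was no other coding gene within 100 kb. Its flanks held 2 shared regions, both on the right, with heights of 1.17 and 1.01, and of 1.06 and 1.08.

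Genes that regulate or partner with Hox genes were read from a list of 77. Of these, 57 had a promoter peak in both replicates, beside 56.2% of all coding genes, and 60 with the longer lists, beside 61.0%. All 29 Polycomb genes were open, which form the complexes that keep Hox clusters silent. So were 9 of 10 genes of the trithorax side, which acts against Polycomb. The exception was Kdm6b, a demethylase of the Polycomb mark, with 0.915 in replicate 1 and 0.770 in the longer list of replicate 2. Of the TALE homeobox genes, whose proteins bind DNA together with Hox proteins, 8 of 9 were open. Meis3 had 0.954 in replicate 1 and 0.581 in the longer list of replicate 2.

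Among upstream signals and factors 10 of 19 were open, a share near the 56.2% of all coding genes. Rara, Rarb, Rarg, Rxra, Rxrb and Rxrg, the receptors for retinoic acid and their partners, were all among them, with heights in replicate 1 from 1.30 to 7.26. The 3 caudal genes Cdx1, Cdx2 and Cdx4, which turn on Hox genes in the trunk, had no peak. Of the enzymes that make retinoic acid, Aldh1a1 had 0.259 and 0.439 in the longer lists. Aldh1a2, at 0.475, and Aldh1a3, at 0.324 in the longer list, had peaks in replicate 1 alone. Of those that degrade it, Cyp26a1, at 0.427, and Cyp26b1, at 0.635, had peaks in replicate 1 alone, and Cyp26c1 had none. Of 10 other homeobox genes that are linked or related to the clusters, 1 was open, Gsx1, with 0.760 and 0.344.

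Marker genes of cell types were read beside the shares of all coding genes, 56.2% with the shorter lists and 61.0% with the longer. With so few markers per type, the counts cannot check the tissue label. Of 6 markers of cortical excitatory neurons 4 were open in both replicates, and all 6 with the longer lists. In the shorter lists Slc17a7 (1.21) and Tbr1 (0.691) had a peak in replicate 1 alone. Of 5 inhibitory neuron markers it was 1, and 4 with the longer lists, of 4 astrocyte markers 3 and of 4 oligodendrocyte markers 3. Of 3 markers each, microglia had 1, endothelial cells 1 and fibroblasts and meninges 2. Blood markers had 0 of 3. Of 6 markers of hindbrain and spinal cord, where Hox genes are active, 2 were open, among them Egr2 (2.56 and 1.94), which is also known from activated neurons. Atoh1 had 0.337 in the longer list of replicate 1, and Barhl1 and Mnx1 had no peak. Whether cells of these types had a part in the few Hox peaks was not tested.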

How the data were processed

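Per the labels and the file headers, the deposited files are on mm10 and each replicate's peaks come from its own filtered alignment. Not given in the sources used here: aligner, callers, their settings. The value used from the deposited peak lists was the height, a signal in the authors' own scale. The deposited FDR track gives values under 0.05, of which the lowest value and the bases under a limit were read. Deposited footprints were used as positions. The shorter list of each replicate was the main list. No read counts were read, so depth is unknown.

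Overlapping peaks of a list were joined. Sequence came from GRCm38.p6, which the peaks did not exceed on 21 of 21 chromosomes, and genes from GENCODE M21. Python 3.11.15, numpy 2.4.6, pandas 2.3.3 and pysam 0.24.0 were used, and the overlap steps were tested on simulated data. The Hox genes and the gene lists were chosen with earlier results of these data known. Genes named with values were the Hox genes, coding neighbours and non-coding genes with a promoter peak in any list, and list members whose call differed from most of their group. Alternatives were other lists, windows, starts, FDR limits, overlaps, flanks and each replicate alone. Some genes that this rule would name are not reported here.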

Additional observations from a re-analysis of the deposited data

How the results depend on the processing

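No paired analysis was possible because there was 1 group. The count of 2 open Hox promoters became 4 with the longer lists, 1 with the stronger 50% of peaks, 4 with 2000 bp windows (Hoxa3 and Hoxb5 joining), 1 at the 5'-most start and 1 at CCDS starts, and ranged from 2 to 4 with each replicate alone. The 4 promoters with an FDR stretch became 2 at a limit of 0.01 and 2 at 0.001, and ranged from 4 to 7 with each replicate alone. The 2 with a footprint became 4 with 2000 bp windows and ranged from 2 to 5. The 9 shared regions inside the clusters became 4 with the stronger 50% of peaks and ranged from 11 to 15 with each replicate alone. The 12 in the flanks became 27 with the longer lists, 4 with the stronger 50%, 4 in 50 kb and 35 in 200 kb, and ranged from 19 to 20. Regions with a CTCF match went from 1 to 3 with 1 mismatch. These moves follow from what each alternative counts: longer or shorter lists, wider windows or 1 replicate in place of both. The share of all coding genes was not computed for the stronger 50%, 2000 bp windows, 5'-most starts or stricter FDR limits. There the Hox counts have no such share beside them. Depth is unknown, so a promoter without a peak was not detectably open in these lists, which does not show that it is closed in every cell.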

Other observations

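The low peaks along Hoxd11 stood apart from the rest of the family. In replicate 1, 765 bp of its promoter windows had an FDR under 0.05, in low peaks of at most 0.281, and in replicate 2 there were 0 bp. The Hoxd cluster as a whole had 2436 open bases in replicate 1 and 968 in replicate 2, and the Hoxc cluster had 760 and 780. Footprints per Mb of the Hoxd span were 217 and 51.6, and 103 and 89.9 in the genome. Of the retinoic acid enzyme genes, Cyp26b1 had 3122 open bases in replicate 1 and 0 in replicate 2, Aldh1a2 had 963 and 0, Cyp26a1 had 535 and 0, Aldh1a3 had 76 and 0, Aldh1a1 had 135 and 323, and Cyp26c1 had 0 in both. With 1 library per replicate, a difference between animals and one between libraries cannot be told apart.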
